A study of Mus musculus with 4 samples.

Results

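Cyclic nucleotide phosphodiesterases are the enzymes that break down cAMP and cGMP, and 10 of their genes were followed here through the cell classes of the mouse lung: Pde1a, Pde1c, Pde3a, Pde3b, Pde4b, Pde4d, Pde5a, Pde7b, Pde8b and Pde10a. They were taken by gene symbol, from a list chosen with earlier results of these data known. They are 10 of the 32285 genes counted, and all 10 were detected. The RNA was counted in single nuclei from the lungs of 2 WT mice (C57/BL6J) and 2 VEcad-TRF2DN-Tg mice, aged 8 to 9 weeks. The Tg mice express TRF2DN, a mutant of TRF2 that blocks the normal telomere protein, from the promoter of VE-cadherin, a gene of ECs. The study states that the sequenced lungs came from mice under chronic hypoxia, so no mouse kept in room air was compared. Its methods give male mice of 8 to 9 weeks as those regularly used. They put the hypoxia at 10% O2 and do not state the age of these mice when the lungs were taken.

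cAMP and cGMP relax vascular smooth muscle and pericytes, tighten the endothelial barrier and drive fluid and surfactant handling in the alveolus. Nitric oxide and natriuretic peptides raise cGMP through guanylate cyclases, and prostacyclin, adrenaline and other hormones raise cAMP through Gs-coupled receptors and adenylate cyclases. The phosphodiesterase families differ in substrate: PDE5 degrades cGMP, the families PDE4, PDE7 and PDE8 degrade cAMP, and PDE1, PDE3 and PDE10 degrade both, PDE1 after activation by calcium and calmodulin and PDE3 under inhibition by cGMP. PDE5 inhibitors such as sildenafil are used to treat pulmonary hypertension.

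Barcodes with at least 1500 UMIs (transcripts counted once each) were grouped by their profile and named from marker genes. The WT mice had 125261739 and 146133943 UMIs in all, the Tg mice 128645180 and 182014706, and 19 classes had at least 10 nuclei in every mouse. Levels are given as CPM, the UMIs of the gene per 1000000 UMIs of the class, and barcodes with 300 to 800 UMIs stood for empty droplets, which hold RNA that is free in the suspension. Free RNA was estimated, from markers of other classes, at 35.6 to 72.8% of the UMIs of a class in the WT mice and 26.2 to 56.8% in the Tg mice, and in 17 of 19 classes both Tg mice lay below both WT mice. Outside airway secretory nuclei, these markers included Scgb1a1, at 15010 and 15670 CPM in the empty droplets of the WT mice against 128100 and 43360 CPM. For pericytes, all such markers summed there to 41100 and 45530 CPM against 180000 and 92520 CPM, so the estimate leans on this 1 gene. Between 176 and 475 barcodes of at least 1500 UMIs were shared by any 2 of the mice. Xist was near 0 and genes of the Y chromosome were counted in all 4 mice. Terf2, the mouse gene of TRF2, was at 44.9 and 53.3 CPM in the WT mice against 40.5 and 49.0 in the Tg mice, which does not check the transgene. The 8 marker genes of airway secretory nuclei included secretoglobins that were abundant in the empty droplets, and 0 to 2 of them stood over 2-fold above the empty droplets in that class, against 8 or 9 of 9 in pericytes. Smooth muscle nuclei were not separated as a class.

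Pde5a, which encodes the cGMP-specific PDE5, was highest in pericytes. It was counted at 1880 and 1881 CPM in the pericytes of the WT mice and at 2160 and 2034 CPM in those of the Tg mice. All 4 mice lay close together, with a mean of 1989 ± 135 CPM (SD, n = 4 mice of both genotypes, as for every mean below). This was 71.75-fold the empty droplets, where the 4 mice had 25.0 to 31.8 CPM. Alveolar fibroblasts came next with 128.6 ± 15.5 CPM, 4.64-fold the empty droplets and below pericytes in every mouse. Adventitial fibroblasts (68.9 ± 26.7 CPM) and aerocytes (61.1 ± 9.9 CPM) were not separated from each other beyond the spread between mice. Pericytes held 75.9% of the CPM summed over the 19 classes. After each nucleus was thinned to 1500 UMIs, 69.4% and 71.8% of the pericytes of the WT mice, and 88.4% and 80.0% of those of the Tg mice, carried a Pde5a UMI, against 1.65% of alveolar type 1 nuclei. With 39 to 70 pericyte nuclei a mouse, the exact (Clopper-Pearson) 95% intervals were wide, from 54.6 to 81.8% in WT mouse 1 and from 74.9 to 96.1% in Tg mouse 1, and they cover counting error only. The share before thinning was 73.5% to 90.7%. The pericyte class also carried smooth muscle markers, at 262, 247, 633 and 343 CPM summed over 8 genes (WT mice, then Tg mice) against 18.1 to 41.7 CPM in the empty droplets and 3852 to 5160 CPM for the 9 pericyte markers. Endothelial markers summed there to 479 to 756 CPM, under their level in the empty droplets in every mouse, and the part of any of these in the level of Pde5a was not tested.

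**Figure D1:**
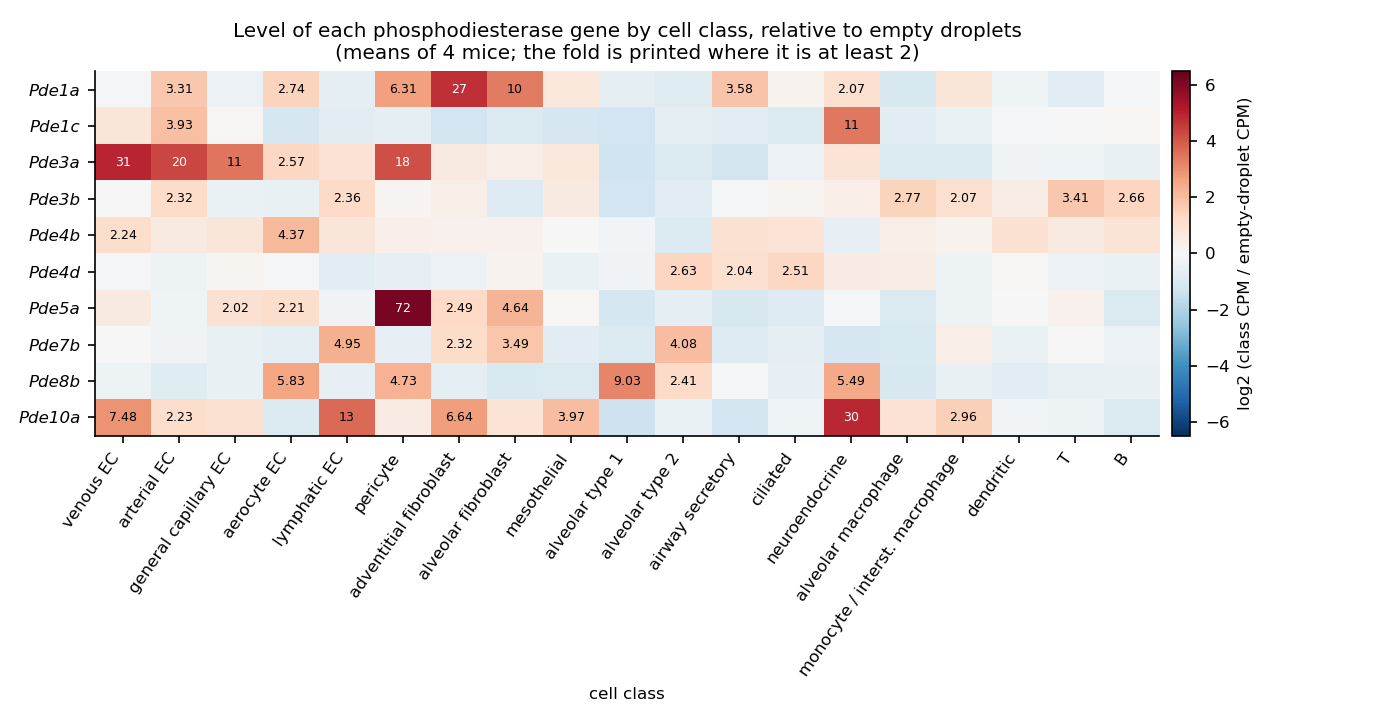
Level of the 10 phosphodiesterase genes (rows) in 19 cell classes (columns) as the log2 ratio of the mean CPM of 4 mice in the class to that in the empty droplets, with the fold printed where it was at least 2. The highest folds were those of Pde5a in pericytes (71.75-fold), Pde3a in venous ECs (31.2-fold), Pde10a in neuroendocrine nuclei (29.9-fold) and Pde1a in adventitial fibroblasts (27.0-fold). Pde3a in arterial ECs and pericytes came next, while Pde4d was at most at 2.63-fold in any class.

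Of the genes of the families that degrade both nucleotides, Pde3a was highest in vascular classes, Pde3b in T cells, Pde1a in adventitial fibroblasts, and Pde1c and Pde10a in neuroendocrine nuclei. Pde3a followed the vessel wall. Venous ECs had 2650 and 2466 CPM in the WT mice and 2539 and 2386 CPM in the Tg mice. The genotypes overlapped, with a mean of 2510 ± 112 CPM and 31.2-fold the empty droplets. Arterial ECs (1611 ± 289 CPM) and pericytes (1487 ± 196 CPM) followed and were not separated from each other. General capillary ECs had 902 ± 108 CPM, lower than pericytes and 4.36-fold higher than aerocytes in the means, with the same order in all 4 mice. Aerocytes, the large capillary ECs of the gas exchange surface, had only 207 ± 25.1 CPM, and lymphatic ECs 156.3 ± 54.97 CPM. The thinned share of nuclei with a Pde3a UMI was 76.9 to 91.1% in venous ECs, 54.6 to 64.0% in general capillary ECs and 18.1 to 21.7% in aerocytes, against 4.61% in alveolar type 1 nuclei. PDE3A degrades cAMP in platelets, heart and vascular muscle and is the target of cilostazol and milrinone.

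Pde3b, the isoform known from fat and liver, showed no such peak. T cells had 282 and 366 CPM in the WT mice and 426 and 314 CPM in the Tg mice, a mean of 346.7 ± 62.9 CPM and 3.41-fold the empty droplets. Alveolar macrophages (281.7 ± 28.7 CPM), B cells (271 ± 67.6 CPM) and lymphatic ECs (240 ± 49.6 CPM) came next and were not separated from each other. The thinned share was 33.9% of T nuclei on average and 6.01% in alveolar type 1 nuclei, the lowest class.

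The calcium-dependent genes were in other cells. Pde1a was highest in fibroblasts, with 226 and 179 CPM in the adventitial fibroblasts of the WT mice and 199 and 180 CPM in those of the Tg mice. The mean of 196 ± 22.0 CPM was 27-fold the empty droplets and lay above alveolar fibroblasts (75.1 ± 23.4 CPM) in every mouse. Airway secretory nuclei, at a mean of 26.0 ± 5.62 CPM, were also over 2-fold above the empty droplets in all 4 mice (3.58-fold in the means) and, being numerous, held 33.5% of the Pde1a UMIs of named nuclei. Pericytes were uneven, with 98.9 and 28.2 CPM in the WT mice and 0 and 56.4 CPM in the Tg mice. Pde1c was highest in neuroendocrine nuclei, at 720 and 373 CPM in the WT mice and 351 and 394 CPM in the Tg mice, 10.8-fold the empty droplets. WT mouse 1, with the most Pde1c, also had the most cardiac muscle marker RNA in these nuclei (1062 CPM against 508 to 695 CPM in the other mice), and its part was not tested. Arterial ECs followed, at 155 and 284 CPM against 87.9 and 138.9 CPM, and these were above venous ECs in all 4 mice.

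Pde10a, best known from neurons of the striatum, was likewise highest in neuroendocrine nuclei, the airway cells that sense and secrete like neurons. The 4 mice scattered widely there, with 319 and 272 CPM in the WT mice and 84.7 and 434 CPM in the Tg mice. The class held only 15 and 13 nuclei in the WT mice, against 58 and 102 in the Tg mice, and the mean of 277.5 ± 145.5 CPM was not separated from lymphatic ECs (120 ± 27.6 CPM). Lymphatic ECs in turn lay above venous ECs (69.4 ± 15.3 CPM) in all 4 mice. The means of neuroendocrine nuclei and lymphatic ECs were 29.9-fold and 12.9-fold the empty droplets, where Pde10a was at 4.0 to 19.2 CPM.

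The genes of the cAMP-specific families differed most in breadth. Pde4d, which encodes a PDE4 of airway and vascular muscle, was counted in every class, from 1018 CPM in lymphatic ECs to 4318 ± 536 CPM in alveolar type 2 nuclei. Alveolar type 2 nuclei had 4429 and 4963 CPM in the WT mice and 3667 and 4214 CPM in the Tg mice. Ciliated nuclei (4113 ± 727 CPM) were not separated from them, and airway secretory nuclei (3340 ± 586 CPM) lay below ciliated nuclei in all 4 mice. Free RNA held much Pde4d, with 2792 and 2263 CPM in the empty droplets of the WT mice and 537 and 968 CPM in those of the Tg mice. No class exceeded the empty droplets by over 2-fold in all 4 mice, so that the level of Pde4d in a class with little of its own cannot be read from these counts.

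Pde4b, the PDE4 gene that inflammatory stimuli induce in leukocytes, was highest in aerocytes. It was at 535 and 419 CPM in the WT mice and 390 and 414 CPM in the Tg mice, a mean of 439.9 ± 65.0 CPM and 4.37-fold the empty droplets. This was 1.95-fold the level in venous ECs (225 ± 59.0 CPM), with the same order in all 4 mice, and dendritic cells (200.4 ± 30.04 CPM) came after them. Aerocytes thus had the highest level of Pde4b and the lowest of Pde3a among the 4 vascular EC classes.

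Pde8b, whose product has a high affinity for cAMP, was highest in alveolar type 1 nuclei, the flat epithelium of gas exchange. The 4 mice agreed closely there, with 781 and 818 CPM in the WT mice and 790 and 769 CPM in the Tg mice, and the mean of 789.7 ± 20.7 CPM was 9.03-fold the empty droplets. Aerocytes (510 ± 98.8 CPM), neuroendocrine nuclei (481 ± 150 CPM) and pericytes (414 ± 41.9 CPM) formed a second tier whose neighbours were not separated, and alveolar type 2 nuclei followed with 210.9 ± 19.4 CPM. The thinned share was 59.2 to 63.2% of alveolar type 1 nuclei against 4.86% of alveolar fibroblasts.

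Pde7b was shared by classes of several lineages. Lymphatic ECs had 939 and 1391 CPM in the WT mice and 877 and 878 CPM in the Tg mice, alveolar type 2 nuclei 842.8 ± 115 CPM and alveolar fibroblasts 719.5 ± 98.8 CPM. The 3 classes were not separated from their neighbours in this order, and alveolar fibroblasts lay above adventitial fibroblasts (479 ± 106 CPM) in all 4 mice. The empty droplets held more Pde7b in the WT mice (308 and 304 CPM) than in the Tg mice (82.1 and 130.8 CPM).

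**Figure D2:**
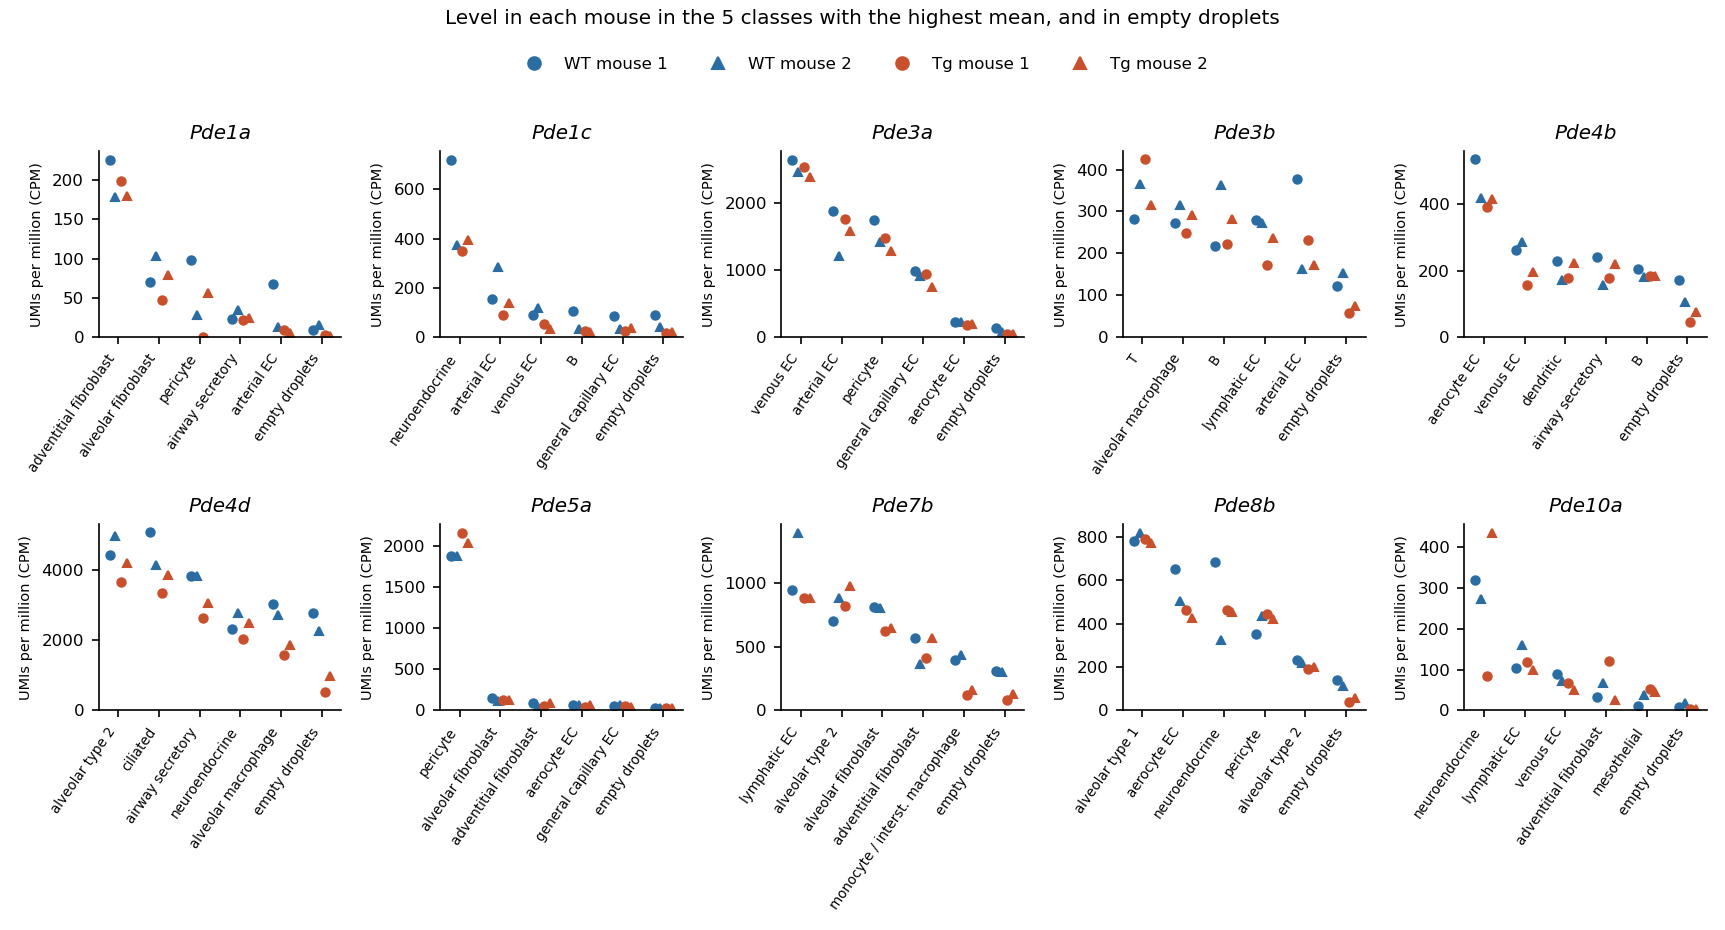
CPM of each gene in each mouse (circle and triangle for mouse 1 and 2, blue for WT, red for Tg) in the 5 classes with the highest mean and in the empty droplets. Pde5a in pericytes, Pde3a in venous ECs and Pde8b in alveolar type 1 nuclei lay within a narrow range in the 4 mice. In the empty droplets both Tg mice lay below both WT mice for every gene but Pde5a. The share of all genes ordered like this was not counted, and 11.0% of all genes were called as lower there by edgeR.

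Reads on introns were counted, so that levels of different genes are compared per length of the gene (mm10, coordinates and gene bodies from RefSeq GRCm38.p6). Pde4d spans 1301.8 kb (chr13:108654177-109955969) and Pde5a 130.2 kb (chr3:122729158-122859374). Pde3a lies at chr6:141249269-141506862, Pde3b at chr7:114415222-114537938, Pde4b at chr4:102087332-102607275 and Pde7b at chr10:20397052-20725078. Pde8b lies at chr13:95024105-95250401, Pde10a at chr17:8525187-8986648, Pde1a at chr2:79834453-80196522 and Pde1c at chr6:56069798-56652510. Per 100 kb of gene, pericytes had 1527 ± 104 CPM of Pde5a, 577 ± 76.1 of Pde3a, 183.0 ± 18.5 of Pde8b and 87.0 ± 62.5 of Pde4d, the last below the empty droplets. In the vascular ECs joined (arterial, venous, general capillary and aerocyte), Pde3a had 424.5 ± 73.6 CPM per 100 kb and Pde5a 40.2 ± 5.58, at 13.6-fold and 1.89-fold the empty droplets. Pde4d had 131 ± 44.8 CPM per 100 kb and Pde3b 76.4 ± 14.3, but with levels of 1.04-fold and 0.92-fold the empty droplets they are not ranked. In alveolar type 1 nuclei, Pde8b had 349 CPM per 100 kb.

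The other genes of the pathway, from fixed lists, placed the cyclases beside these enzymes, and the genes named here were chosen after their values were seen. Of 16 cyclases, 7 were highest in pericytes with over 2-fold the empty droplets in all 4 mice. Among them were the subunits of the soluble guanylate cyclase that nitric oxide activates. Gucy1a1 had 1084 ± 149 CPM there, Gucy1a2 783 ± 66.8 CPM and Gucy1b1 778 ± 164 CPM, which was 39.9-fold, 51.3-fold and 61.9-fold the empty droplets. The adenylate cyclase Adcy8 had 1350 and 1803 CPM in the pericytes of the WT mice and 1941 and 1680 CPM in those of the Tg mice, 217-fold the empty droplets. Prkg1, the cGMP-dependent kinase, had 6289 ± 790 CPM, 33.0-fold the empty droplets. The receptor guanylate cyclases Npr1 and Npr2, which natriuretic peptides activate, had 35.3 ± 14.4 and 25.3 ± 13.1 CPM in pericytes, 0.71-fold and 1.46-fold the empty droplets. Of the 14 other phosphodiesterases, 8 stood over 2-fold above the empty droplets in all 4 mice in their highest class. Pde9a, which encodes another cGMP-specific enzyme, was highest in aerocytes (141.2 ± 6.94 CPM) and at 0.94-fold the empty droplets in pericytes, and Pde2a, which cGMP stimulates, in lymphatic ECs (112 ± 40.8 CPM). Of the Gs-coupled receptors, Calcrl, the receptor of adrenomedullin, was highest in general capillary ECs (2508 ± 266 CPM), and Nos3, the endothelial nitric oxide synthase, was highest in arterial ECs (135.7 ± 99.2 CPM, with a wide spread).

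**Figure D3:**
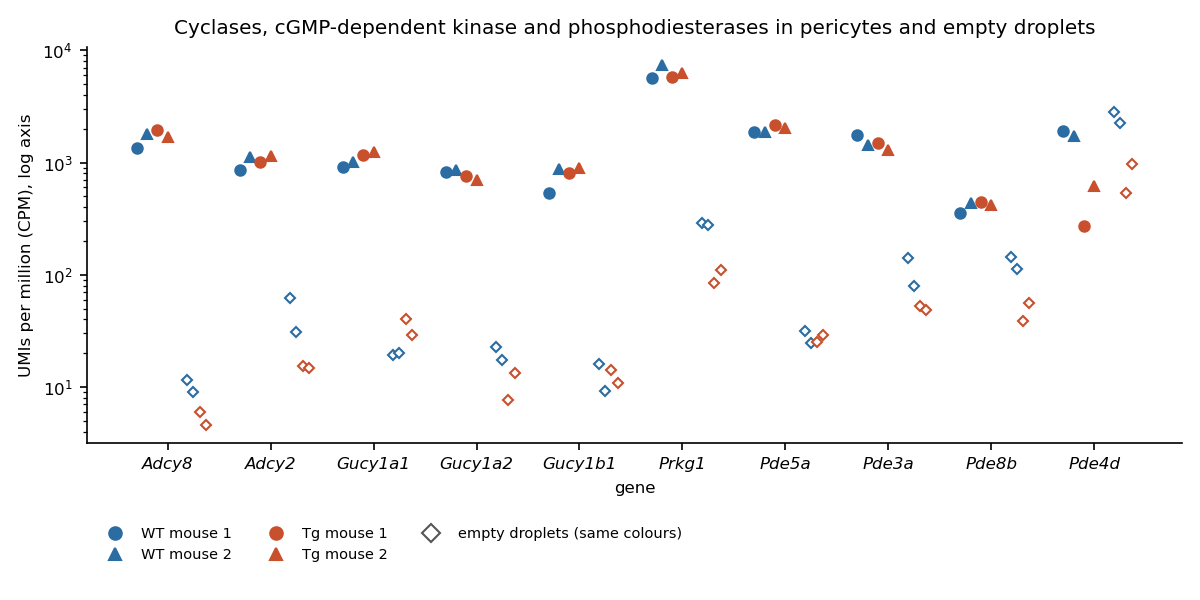
CPM, on a log axis, of cyclases, Prkg1 and 4 phosphodiesterases in the pericytes of each mouse (filled symbols) and in its empty droplets (open diamonds). The cyclases, Prkg1, Pde5a, Pde3a and Pde8b lay above the empty droplets in all 4 mice, whereas Pde4d lay below them.

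The genes most like each member over the 19 classes were taken by the correlation of log2(CPM + 1) of the class means among 11494 genes with at least 20 CPM in a class, a description of classes that share libraries and free RNA. For Pde5a these were 4930447N08Rik (r = 0.98), Carmn (0.93) and Gucy1b1 (0.92), all highest in pericytes. For Pde3a they were Kcnh1 (0.90), Itga1 (0.89) and Gm10687 (0.88). Those of Pde1a (Prrx1, Ism1 and Lama2, 0.87 to 0.84) were highest in fibroblasts. Those of Pde1c (Grin3a, Kcnc2 and Cntn3, 0.88 to 0.86) and Pde10a (G630016G05Rik, Cacna2d3 and Meis2, 0.86 to 0.84) were highest in neuroendocrine nuclei. For Pde3b they were 4933406I18Rik (0.93), Tnfaip8 and Taf1d, for Pde4d Junos (0.90), Tbc1d30 and Pigu, and for Pde7b Gm17167 (0.86), Igsf3 and Itga9. Pde4b (Mtmr2, Rc3h1 and Ncoa3) and Pde8b (Ttll7, Inpp5b and Cpeb4) had no gene above 0.76. Between the 10 members, the correlation was at most 0.56, for Pde3a and Pde5a.

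Whether the levels differed between WT and Tg mice was compared with edgeR's quasi-likelihood test on the UMIs summed per mouse and class. In the class where each gene was highest, 0 of 10 members were called, and 0 of those tests had an unadjusted p under 0.05. Of all genes, 10.2% were called over the classes and the joined vascular ECs. The share of all genes called in their own highest class was not counted. In pericytes, Pde5a had a log2 fold change of 0.40 ± 0.31 (SE, adjusted p = 0.51), although the 2 Tg mice lay above the 2 WT mice. Pde3a had 0.04 ± 0.26 in venous ECs (adjusted p = 0.95) and 0.05 ± 0.30 in pericytes (adjusted p = 0.95). Pde8b had 0.01 ± 0.18 in alveolar type 1 nuclei (adjusted p = 0.98), Pde4b -0.13 ± 0.23 in aerocytes (adjusted p = 0.77) and Pde4d -0.21 ± 0.19 in alveolar type 2 nuclei (adjusted p = 0.46). The SEs leave room for changes of a modest size, and an exact permutation test of 2 mice against 2 cannot go below a two-sided p of 0.33.

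Away from those classes, several members were lower in the Tg mice. Of 178 tests of members in the 19 classes and the joined vascular ECs (which share nuclei with 4 of the classes), 27 were called (15.2%), all of them lower in the Tg mice. Of all genes tested in the same comparisons, 10.2% were called in either direction and 2.59% as lower. The members were chosen with earlier results of these data known, so these shares are set side by side only as a description. Without an adjustment, 74 of the 178 tests had a p under 0.05, as had 28.3% of the tests of all genes. Pde8b in adventitial fibroblasts, Pde3a in neuroendocrine nuclei and Pde1a in monocytes or interstitial macrophages passed the filter on low counts only through the WT mice. A call there could only be lower. The 27 calls were 9 for Pde7b, 7 for Pde8b, 5 for Pde4d, 2 each for Pde3a and Pde10a, and 1 each for Pde1a and Pde4b, and they lay in 15 of the 20 comparisons. The count moved with single mice, and the share of all genes called moved with it. Without Tg mouse 1 it was 6 (2.43% of all genes called), without Tg mouse 2 it was 17 (7.44%), and without WT mouse 2 it was 49 (13.1%). Without WT mouse 1 it was 27 (8.04%), of which 19 were among the original calls. In these fits 1 genotype has a single mouse, which is assumed to vary like the 2 of the other, so that a lost call also reflects fewer mice. In 12 of the 19 classes, different clusters held most nuclei of the 2 genotypes, among them airway secretory (cluster 5 in the WT mice, 3 in the Tg mice), alveolar macrophages (7 and 1), alveolar type 2 (2 and 0), general capillary ECs (1003 and 1000), aerocytes (1025 and 1009), mesothelial (27 and 4) and adventitial fibroblasts (1041 and 1027). The same held for venous ECs (1023 and 1014), alveolar fibroblasts (1012 and 1006), alveolar type 1 (12 and 10), ciliated nuclei (28 and 17), and monocytes or interstitial macrophages (1024 and 15).

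The called levels were also set beside those of the free RNA. In the 25 calls within classes, the mean level was 0.43-fold (Pde10a in airway secretory nuclei) to 2.96-fold (Pde10a in monocytes or interstitial macrophages) that of the empty droplets. In 18 of the 27 calls, the level in the class lay below that in the empty droplets of the same mouse in all 4 mice, and 1 lay above it in all 4 mice. Of 24 tests in which the gene stood over 2-fold above the empty droplets in all 4 mice, 0 were called by edgeR, 0 had an unadjusted p under 0.05, and the median log2 fold change was -0.02. Of the other 144 tests, 25 were called, 68 had an unadjusted p under 0.05, and the median was -0.60. This split uses levels of the same samples and is given as a description. It was not made over all genes, so it is not read as particular to the members. The empty droplets themselves differed in the same direction: 5 members were lower there in the Tg mice by the same test, where 11.0% of all genes were. These were Pde1a, which fell by 1.93 on the log2 scale, Pde1c by 1.68, Pde7b by 1.32, Pde8b by 1.22 and Pde3b by 0.84. Pde4d was at -1.55 ± 0.48 there (adjusted p = 0.0545) and Pde5a at 0.18 ± 0.26 (adjusted p = 0.62). With either Tg mouse left out, 0 members were called in the empty droplets by edgeR, with 5 (without Tg mouse 1) and 7 (without Tg mouse 2) at an unadjusted p under 0.05, against 8 called by DESeq2 with all mice. Of all genes in the empty droplets, 0 and 5.04% were called in the 2 fits without a Tg mouse, 20.8% and 34.9% had an unadjusted p under 0.05, and 11.3% were called as lower by DESeq2. The free RNA also differed in make-up between the genotypes. Mitochondrial genes supplied 0.13 and 0.15% of the UMIs of the empty droplets in the WT mice against 0.78 and 0.69% in the Tg mice, and a median of 0.071 and 0.137% against 0.319 and 0.387% in nuclei. In the empty droplets, Hbb-bs, a haemoglobin gene of red blood cells, had 83.0 and 112 CPM against 4742 and 2749 CPM, Sftpc, a surfactant gene, 1092 and 2454 CPM against 15630 and 12940 CPM, and Scgb1a1, an airway secretoglobin, 15010 and 15670 CPM against 128100 and 43360 CPM. The part of this shift in the lower levels of the members was not tested.

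**Figure D4:**
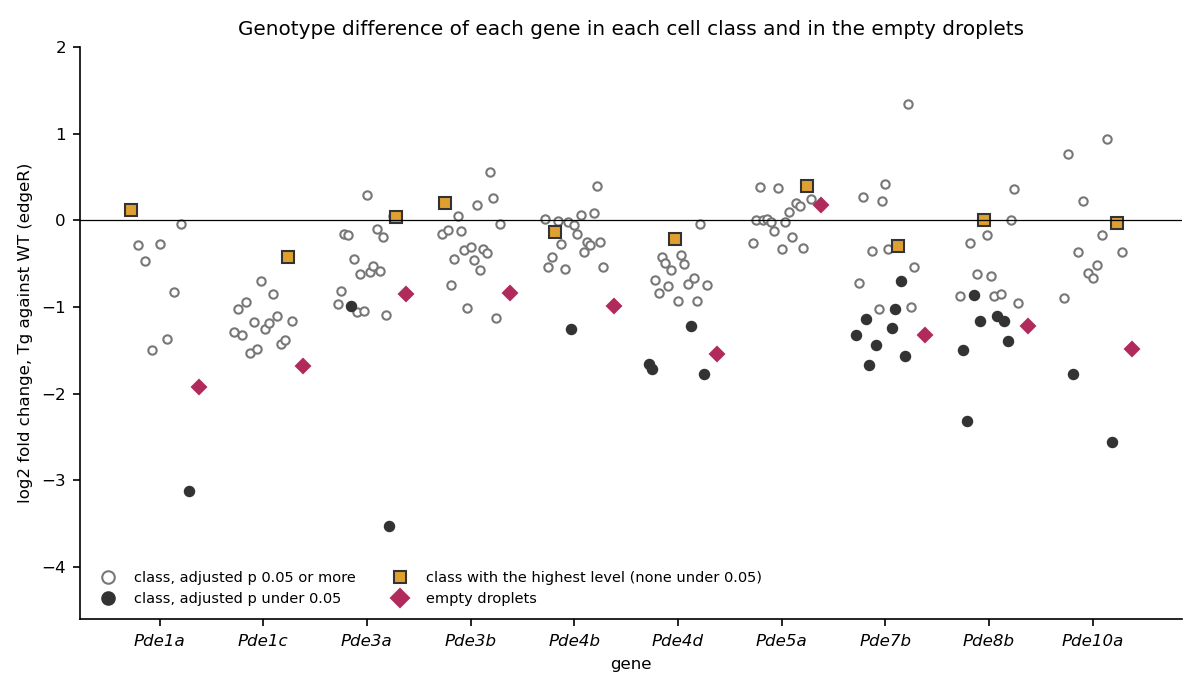
Log2 fold change between Tg and WT mice of each gene in each class where it was tested (circles, filled where the adjusted p was under 0.05), in the class where it was highest (squares) and in the empty droplets (diamonds). The squares lay between -0.42 and 0.40, none of them called, and all filled circles lay below 0, as did the diamonds of every gene but Pde5a. Of all genes, 2.59% were called as lower over the classes and the joined ECs, and 11.0% in the empty droplets.

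In the joined vascular ECs, where 3.96% of all genes were called as lower, 2 of 10 members were. Pde7b was at 183 and 223 CPM in the WT mice and 105.8 and 118.6 CPM in the Tg mice, and fell by 0.82 on the log2 scale (SE 0.18, adjusted p = 0.030). Pde4d was at 2308 and 2095 CPM in the WT mice and 1105 and 1323 CPM in the Tg mice, and fell by 0.83 (SE 0.20, adjusted p = 0.038). Both genes were below the empty droplets in both WT mice. In the Tg mice, Pde4d was above them (2.06-fold and 1.37-fold) and Pde7b above and below (1.29-fold and 0.91-fold). After free RNA was subtracted neither was called, at 0.69 ± 0.43 for Pde7b (adjusted p = 0.47) and -0.21 ± 0.17 for Pde4d (adjusted p = 0.58). Pde3a, with the highest level per length in these nuclei, was at 1286 and 950 CPM in the WT mice and 1225 and 912 CPM in the Tg mice, with no difference called (log2 fold change -0.03 ± 0.26, adjusted p = 0.94). Of the lists, 1 of 9 other phosphodiesterases (Pde1b, -1.73 ± 0.45, adjusted p = 0.048) and 1 of 12 cyclases (Adcy9, -0.64 ± 0.17, adjusted p = 0.049) were called there, both lower, and 0 of 9 effectors, 0 of 11 receptors and 0 of 4 nitric oxide synthases and exporters by edgeR. The median log2 fold change of the members was -0.51 in the joined ECs, beside 0.02 for all genes.

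In pericytes, 1.46% of all genes and 1 of 7 members tested were called as lower. Pde4d was at 1908 and 1740 CPM in the WT mice and 269.9 and 615 CPM in the Tg mice, and fell by 1.78 on the log2 scale (SE 0.34, adjusted p = 0.0038). These levels were 0.50 to 0.77 of those in the empty droplets of the same mice, where both Tg mice also lay below both WT mice without a call (adjusted p = 0.0545). After free RNA was subtracted, the log2 fold change was -1.44 ± 0.57 and no longer called (adjusted p = 0.78). None of the cyclases and effectors tested in pericytes (7 and 6 genes) was called by edgeR, the medians being 0.44 and 0.24. The smooth muscle markers in this class summed to 262 and 247 CPM in the WT mice against 633 and 343 CPM in the Tg mice. Their part in the differences of Pde4d and Pde5a was not tested.

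Airway secretory nuclei and monocytes or interstitial macrophages had 4 members called each, where 5.16% and 3.57% of all genes were called as lower. In airway secretory nuclei, Pde7b was at 167 and 186 CPM in the WT mice and 42.7 and 68.2 CPM in the Tg mice, and fell by 1.67 on the log2 scale (SE 0.22, adjusted p = 0.015). Pde3a, Pde8b and Pde10a were the other 3, and Pde3a, Pde7b and Pde10a lay at 0.37 to 0.61 of the empty droplets in every mouse. In that class, the lists also held calls in both directions. The effectors Rapgef4 (-1.18 ± 0.24, adjusted p = 0.030) and Prkg1 (-1.14 ± 0.15, adjusted p = 0.015), the cyclase Adcy9 (-0.74 ± 0.15, adjusted p = 0.028) and the exporters Abcc4 and Abcc5 (-0.58 and -0.61) were lower. The channel Hcn2 (1.86 ± 0.45, adjusted p = 0.044), the prostaglandin receptor Ptger4 (1.19 ± 0.30, adjusted p = 0.046) and Gucy1a2 (0.54 ± 0.13, adjusted p = 0.045) were higher. Over the 19 classes, the other phosphodiesterases had 2 calls higher and 1 lower in 121 tests, the cyclases 2 and 5 in 175, the effectors 2 and 11 in 169, the receptors 2 and 1 in 126, and the synthases and exporters 1 and 2 in 50.

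In monocytes or interstitial macrophages, Pde7b was at 393 and 433 CPM in the WT mice and 118.9 and 159.8 CPM in the Tg mice, and fell by 1.57 on the log2 scale (SE 0.26, adjusted p = 0.0048). It was the 1 called difference in which the class lay above the empty droplets in all 4 mice, by 1.22-fold to 1.45-fold. After free RNA was subtracted it was at -1.62 ± 0.37, as large as before but no longer called (adjusted p = 0.11). Pde8b fell by 1.39 (adjusted p = 0.029). Pde1a was at 35.7 and 11.4 CPM in the WT mice and 0 and 2.21 CPM in the Tg mice, and only the WT mice passed the filter on low counts. Pde10a overlapped between the genotypes, with 8.93 and 78.5 CPM against 12.7 and 9.94 CPM. Its fall of 2.55 on the log2 scale turned into 0.36 without WT mouse 2, whose nuclei supplied 184 of the 221 nuclei of cluster 1024. Pde3a in neuroendocrine nuclei was at 94.4 and 453 CPM in the WT mice and 29.6 and 17.5 CPM in the Tg mice, and fell by 3.53 on the log2 scale (SE 0.68, adjusted p = 0.031). Here too, only the WT mice passed the filter on low counts. WT mouse 2, with 13 nuclei, was the only mouse above its empty droplets, and without it the log2 fold change was -2 (adjusted p = 0.238). Without Tg mouse 1, the fold was as large (-3.79) but not called (adjusted p = 0.454), with a single Tg mouse left. The 12 endothelial markers summed in this class to 201 and 1119 CPM in the WT mice and 347 and 337 CPM in the Tg mice (715 to 896 CPM in the empty droplets), highest in the mouse with the most Pde3a. The 9 cardiac muscle markers summed there to 1062 and 695 CPM in the WT mice and 512 and 508 CPM in the Tg mice (56.0 to 95.7 CPM in the empty droplets), without overlap between the genotypes, and the part of either list in the call was not tested.

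The other calls had the same form. Pde7b fell by 0.71 to 1.43 on the log2 scale in B cells (255 and 209 CPM against 86.1 and 88.8 CPM), aerocytes, alveolar macrophages, dendritic cells, general capillary ECs and mesothelial nuclei. Pde8b fell by 2.31 in adventitial fibroblasts (100.4 and 89.5 CPM against 15.04 and 17.1 CPM). It entered that test only through the WT mice, as both Tg mice lay below the filter on low counts. In that class the 9 cardiac muscle markers summed to 812 and 1089 CPM in the WT mice and 41.4 and 167 CPM in the Tg mice, against 56.0 to 95.7 CPM in the empty droplets, and their part in the call was not tested. Pde8b also fell by 1.11 to 1.49 in T cells, alveolar macrophages, mesothelial nuclei and general capillary ECs. Pde4d fell by 1.65 in B cells, 1.71 in T cells and 1.22 in lymphatic ECs, and Pde4b by 1.26 in alveolar type 2 nuclei. All of these stood at or below the empty droplets in both WT mice. Subtraction of free RNA reversed most of the falls of Pde7b, to 0.65 in aerocytes, 0.49 in alveolar macrophages, 0.95 in general capillary ECs and 2.11 in mesothelial nuclei, where it was called as higher, and left -0.45 in B cells and -0.65 in dendritic cells. The sign also turned positive for Pde8b in alveolar macrophages (4.96 ± 1.36), mesothelial nuclei (1.59 ± 1.32) and general capillary ECs (0.19 ± 1.39). The same held for Pde4d in lymphatic ECs (0.41 ± 0.315) and Pde4b (1.37 ± 1.65), whereas Pde4d had -0.26 in B cells and -0.73 in T cells. Apart from Pde7b in mesothelial nuclei, none of these was called. With levels at or below the empty droplets, subtraction takes off much of the counts in the WT mice. The positive signs are therefore not read as rises.

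Whether the genotype difference of a gene itself varied between classes was tested as the interaction of class and genotype. The fit has a term for each mouse, so its p-values rest on the spread of class sums within mice, not on that between mice. Classes of a mouse share a library and free RNA but were treated as independent. It was called for 7 of 10 members, where 8.26% of all genes were called: Pde7b (adjusted p = 2.8e-09), Pde8b (2.5e-06), Pde4d (6.7e-06), Pde4b (0.0028), Pde3a (0.0029), Pde3b (0.0070) and Pde10a (0.014). Pde5a (0.98), Pde1c (0.62) and Pde1a (0.28) were not called. Without Tg mouse 1, which leaves 1 mouse of that genotype, fewer members were called. The share of all genes called in that fit is not given, so this is not read as particular to the members. For Pde7b, the log2 fold change ran from -1.67 in airway secretory nuclei to 1.35 in neuroendocrine nuclei. The latter was not called by edgeR (adjusted p = 0.22). Pde7b was at 0.48-fold the empty droplets there, with 15 and 13 nuclei in the WT mice. For Pde8b, it ran from -2.31 in adventitial fibroblasts to 0.36 in pericytes, where the level was 4.73-fold the empty droplets. The value in adventitial fibroblasts rested on few UMIs and entered its test only through the WT mice. For Pde5a, it stayed between -0.33 and 0.40.

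When the profile of the empty droplets was subtracted from each class, scaled by the estimated share of free RNA, 3 of 155 tests were called in place of 27 of 178 (0.768% of all genes), all 3 higher in the Tg mice. Of the 27 called differences, 6 could no longer be tested, 11 still lay below 0 and 10 lay above 0. In monocytes or interstitial macrophages, Pde10a (-2.54 ± 0.85), Pde8b (-1.26 ± 0.77) and Pde7b (-1.62 ± 0.37) stayed about as large as before, as did Pde7b in airway secretory nuclei (-1.47 ± 1.68), and none of these was called. The 3 calls were Pde3b in alveolar fibroblasts and alveolar type 1 nuclei and Pde7b in mesothelial nuclei. For Pde3b, which had not been called before, 0 UMIs were left in both WT mice, so that the fitted size depends on the prior count and is no measure of a rise. For Pde7b in mesothelial nuclei, 16 and 31 UMIs were left in the WT mice of 257 and 440, against 314 and 575 of 452 and 1046 in the Tg mice. Its log2 fold change there was 2.11 ± 0.25 (adjusted p = 0.047) in place of a fall. The interaction was then called for 1 member, Pde3b, where 3.93% of all genes were called.

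**Figure D5:**
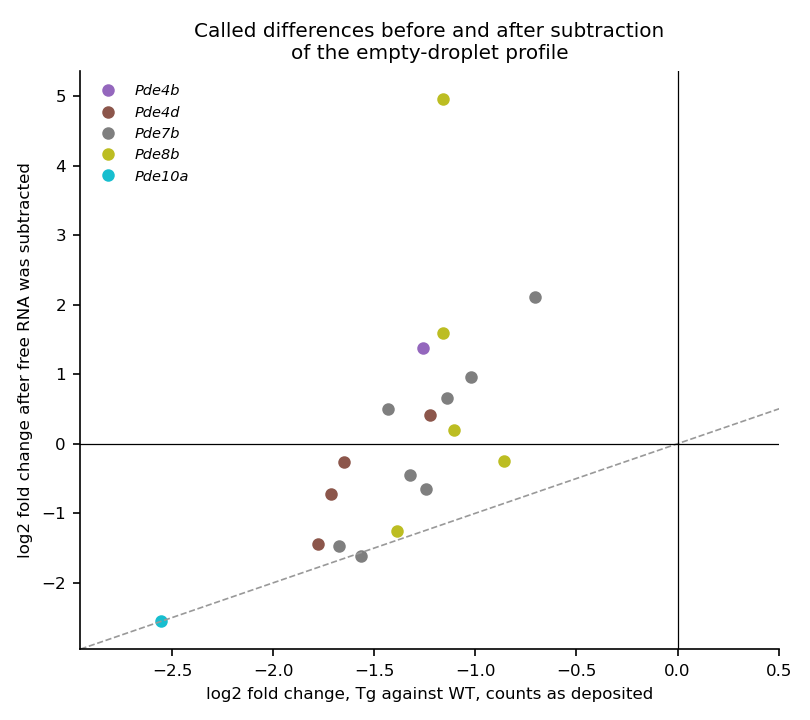
Log2 fold change between Tg and WT mice before (x axis) and after (y axis) subtraction of free RNA, for the called differences in classes that could still be tested. Most points moved up from the dashed line of equal values and several crossed 0. Pde7b, Pde8b and Pde10a in monocytes or interstitial macrophages (-1.62, -1.26 and -2.54), Pde7b in airway secretory nuclei (-1.47, SE 1.68) and Pde4d in pericytes (-1.44) lay below 0, and none of these 5 was called.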

How the data were processed

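The authors deposited raw UMI counts per gene and barcode for each mouse, before nuclei were selected. The submitters' processing notes name Cell Ranger 6.1.1 and mm10, and reads on introns were counted. Barcodes with at least 1500 UMIs were compared with each mouse's empty droplets (300 to 800 UMIs), and 86838 of 134745 stood apart from free RNA. These were clustered (residuals of 2000 genes without the members, 40 components, Leiden resolution 1.5), ECs and mesenchymal nuclei again (resolution 2). Clusters were named from marker lists, with thresholds (a mean log2 score of 0.9, 3 markers over 2-fold, a second class under 0.4 of its highest score) set after the data were seen. Of the barcodes with at least 1500 UMIs, 32.2 to 71.0% were named in each mouse. Clustered nuclei left unnamed made up 6.94% and 7.26% in WT mice, against 27.3% and 23.4% in Tg mice. Doublets were kept, and their removal was an alternative.

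UMI counts were summed per mouse and class with at least 10 nuclei in every mouse, filtered (filterByExpr, minimum 10), scaled by TMM and tested with edgeR 4.0.16 (R 4.3.3), with Benjamini-Hochberg adjustment over all genes of a comparison and a threshold of 0.05. SDs are over 4 mice. A class was called separated from the next when all 4 mice had the same order. p-values of the tests within a class rest on the spread between 2 mice of a genotype, which edgeR moderates toward the spread of the other genes. Those of the interaction measure the spread of class sums within mice. Alternatives were DESeq2 1.42.0, no filter, the replicate block, each mouse left out, deeper nuclei (2500 UMIs), free RNA subtracted, doublets dropped (0.8% per 1000 nuclei), a doubled resolution and other droplets. Tests were checked on simulated counts. Named were all members, the 3 genes most like each, and from the lists those called in the joined ECs or in the class with most calls. Other genes of the lists were named for their levels and were chosen after their values were seen. The members and lists were chosen with earlier results of these data known.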

Additional observations from a re-analysis of the deposited data

Results flagged for a closer look

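The interaction of class and genotype over the 19 classes was called for Pde7b (adjusted p = 2.826e-09), Pde8b (2.518e-06), Pde4d (6.699e-06) and Pde4b (0.002775). It was also called for Pde3a (0.002863), Pde3b (0.006992) and Pde10a (0.01397). These p-values rest on class sums of the same mice treated as independent and do not measure the spread between mice. For Pde7b, Pde8b and Pde4d, the classes in which the gene was highest had log2 fold changes of -0.30, 0.01 and -0.21, beside -1.32, -1.22 and -1.55 in the empty droplets. For Pde3a, WT mouse 2 had 453 CPM in 13 neuroendocrine nuclei. After the subtraction of free RNA, Pde3b was the 1 member still called, where 3.93% of all genes were. Its UMIs in alveolar fibroblasts and alveolar type 1 nuclei of the WT mice had then all been subtracted. The part of this in the call was not tested. The part of free RNA in each of these differences was not tested further.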

How the results depend on the processing

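The 27 called differences became 54 with no filter on low counts, 17 with nuclei of at least 2500 UMIs and 3 with free RNA subtracted, and 6 to 49 with a mouse left out. They became 33 with DESeq2, 24 at a doubled resolution (149 tests in 17 comparisons) and 31 with doublets dropped. Of the main calls, 21, 20 and 25 were among these. The fit with the replicate block gave 36 calls, and 6 in the empty droplets. The replicate numbers are only shared numbers here (correlation of deviations -0.15 to 0.34 over the classes, median 0.08). In the empty droplets, 5 calls became 8 with DESeq2, 9 with no filter and 0 in droplets with at least 100 but under 300 UMIs, where only 1 member could be tested, and 0 to 6 with a mouse left out. Barcodes with at least 1500 UMIs that were not apart from free RNA, an alternative chosen after seeing the data, gave 5. The 7 interactions became 1 with free RNA subtracted and changed in number with a mouse left out. Shares of all genes called are given above for the class tests with free RNA subtracted or a mouse left out. They are also given for the interaction with free RNA subtracted, and for the empty droplets with DESeq2 or without a Tg mouse. For the other settings no such share is given, so a rise or fall of these counts is not read as particular to the members. The class with the highest level was the same for 10 of 10 members with deeper nuclei, doublets dropped or free RNA subtracted. This holds for the highest class only, as the CPM left after subtraction are not given. In pericytes, the estimated share of free RNA was 63.09 and 61.45% in the WT mice against 40.63 and 49.1% in the Tg mice. The CPM given above for the highest classes were not corrected for free RNA. The deeper nuclei left 8 pericytes in Tg mouse 1 and 8 neuroendocrine nuclei in WT mouse 2, under the minimum of 10. These are the highest classes of Pde5a, Pde1c and Pde10a. At the doubled resolution, pericytes (48 and 31 WT nuclei against 0 and 2 Tg nuclei), adventitial fibroblasts (0 nuclei) and ciliated nuclei (8 in WT mouse 1) fell below the minimum, most clusters led by their markers being left unnamed for markers of several classes. The highest class of Pde5a and Pde1a was therefore not recovered in that setting.

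With free RNA subtracted, the log2 fold change of 11 called differences stayed negative. Subtraction takes off much of the counts of genes at or below the empty droplets, so positive signs are not read as rises. The log2 fold change turned positive for Pde7b in aerocytes (0.65), alveolar macrophages (0.49), general capillary ECs (0.95), mesothelial nuclei (2.11) and the joined ECs (0.69). It also did for Pde8b in alveolar macrophages (4.96), general capillary ECs (0.19) and mesothelial nuclei (1.59), for Pde4d in lymphatic ECs (0.41), and for Pde4b in alveolar type 2 nuclei (1.37). Pde3b in alveolar type 1 nuclei, not called before, went from -0.34 to 9.21. With a mouse left out, Pde10a in monocytes or interstitial macrophages ranged from -2.91 to 0.36. The cause was not tested. Depth limits pericytes, arterial ECs, neuroendocrine nuclei and adventitial fibroblasts, with 13 to 111 nuclei in a mouse. The fall of Pde8b in adventitial fibroblasts rests on 12, 12, 4 and 4 UMIs.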
